A study of Homo sapiens with 4 samples.

Results

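ATF4 is the transcription factor of the integrated stress response, in which cells slow protein synthesis when amino acids run short, when proteins misfold in the endoplasmic reticulum, or when other stresses act. Stress kinases phosphorylate the initiation factor eIF2, most translation falls, and the ATF4 mRNA, held back by upstream reading frames, is translated more. ATF4 then pairs with C/EBP proteins on C/EBP-ATF elements in DNA and switches on genes of amino acid supply, redox balance, feedback and, in prolonged stress, cell death. The 10 genes described here are ATF4 and 9 of its stress targets and partners (DDIT3, CHAC1, TRIB3, ASNS, DDIT4, STC2, CEBPB, CEBPG and PPP1R15A). They were taken by symbol from the gene count table, and all 10 had a row among its 28814 genes.

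The cells were 697, an established human B-cell precursor acute lymphoblastic leukaemia line. They received 1 µM MZ1 for 24 h or an equal volume of DMSO, the solvent, for the same time, with 2 libraries in each group. MZ1 is made of JQ1, which binds bromodomains, joined to a binder of the ubiquitin ligase VHL, and leads BET proteins to degradation. The groups share 1 cell line and differ in the agent alone, and since no label states that replicates came from separate cultures, the p-values cover the scatter of these libraries, possibly a technical one. The comparison asks how the transcripts of the ATF4 pathway differ after a day with the degrader.

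The MZ1 libraries held 14544789 and 14246367 counted reads and the DMSO libraries 16005427 and 16488005. All 10 B-lineage markers checked (among them CD79A and PAX5) had reads in both groups, with summed levels of 1178 to 1225 CPM with MZ1 and 3065 to 3095 CPM with DMSO, where CPM is the depth-scaled count with library sizes adjusted by TMM, a scaling that evens out differences in composition. Each of the 10 B-lineage markers was called lower with MZ1 by the test described below, against 41.3% of all tested genes. Their median log2 fold change (MZ1 over DMSO) was −1.37. Myeloid markers, of which 5 of 9 had a row, summed to 24.9 to 28.3 CPM with MZ1 and 5.31 to 6.66 CPM with DMSO. T and NK cell markers (4 of 8) summed to 7.81 to 8.49 CPM with MZ1 and 23.8 to 25.0 CPM with DMSO, and erythroid and megakaryocyte markers (4 of 6) to 19.6 to 20.9 CPM with MZ1 and 0.733 to 1.003 CPM with DMSO. The T cell marker TRAC had no read with MZ1, and the myeloid marker MPO and 2 erythroid or megakaryocyte markers had none with DMSO. Mitochondrially encoded genes made up 8.98% and 9.26% of reads with MZ1 and 5.82% and 5.48% with DMSO. MYC, a known target of BET proteins, had 6.08 and 5.57 CPM with MZ1 against 495.0 and 521.8 CPM with DMSO. The part of these shifts in the results that follow was not tested.

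MZ1 split the ATF4 genes. PPP1R15A, DDIT4 and ASNS were higher, STC2, CHAC1, CEBPB, CEBPG and ATF4 itself were lower, and DDIT3 and TRIB3 did not pass the test. The ASNS call did not hold when its reads were summed with those of an overlapping gene, as described below. Of the 10, all were tested and 8 passed the quasi-likelihood test of edgeR with the adjusted p under 0.05 (Benjamini-Hochberg over 16862 genes), 3 higher and 5 lower. Across all tested genes 84.2% were called, 42.8% higher and 41.3% lower, so the members' share of calls was near that of all genes. Of the members 7 were called with at least a 2-fold change, against 55.2% of tested genes, and the groups did not overlap for 8, against 91.3%. The median log2 fold change (MZ1 over DMSO) was −0.28 over the members and 0.047 over all tested genes. Levels are shares of a library, with no spike-in named, and in such bulk samples fewer cells of a type and less RNA per cell cannot be told apart.

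**Figure D1:**
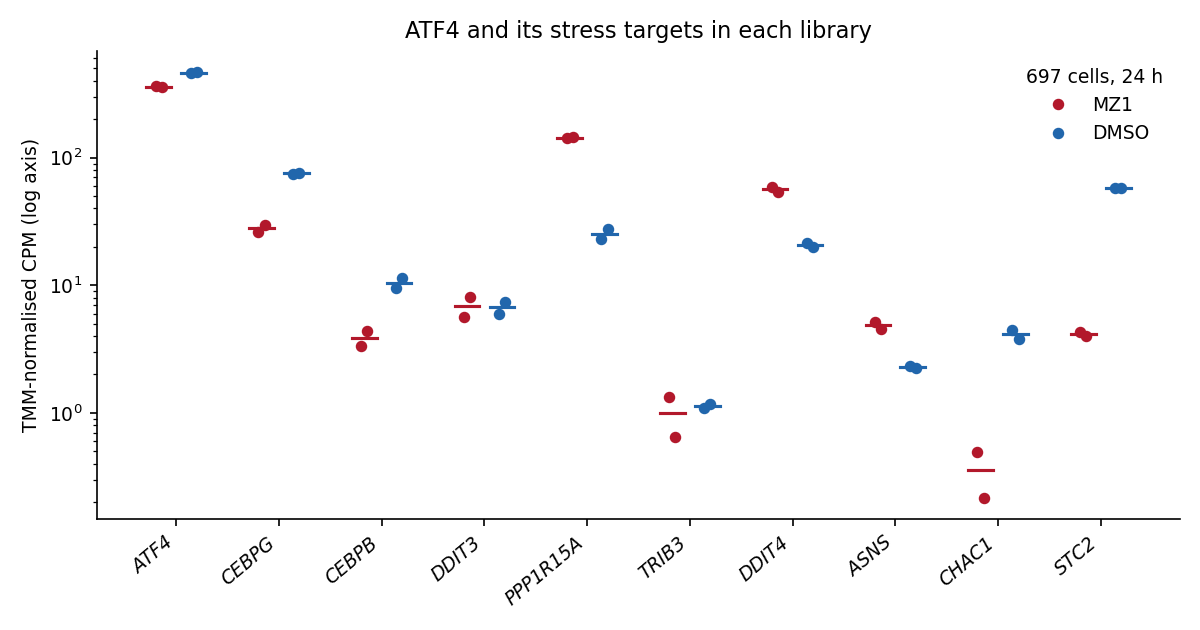
Each point is 1 library, in TMM-normalised CPM on a log axis, with MZ1 (red) left of DMSO (blue) and bars at the group means; heights of different genes are not corrected for length. PPP1R15A, DDIT4 and ASNS lie higher with MZ1, ATF4, CEBPG, CEBPB, CHAC1 and STC2 lower, and the points of DDIT3 and TRIB3 overlap. ASNS is plotted without the reads of its overlapping gene.

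**Figure D2:**
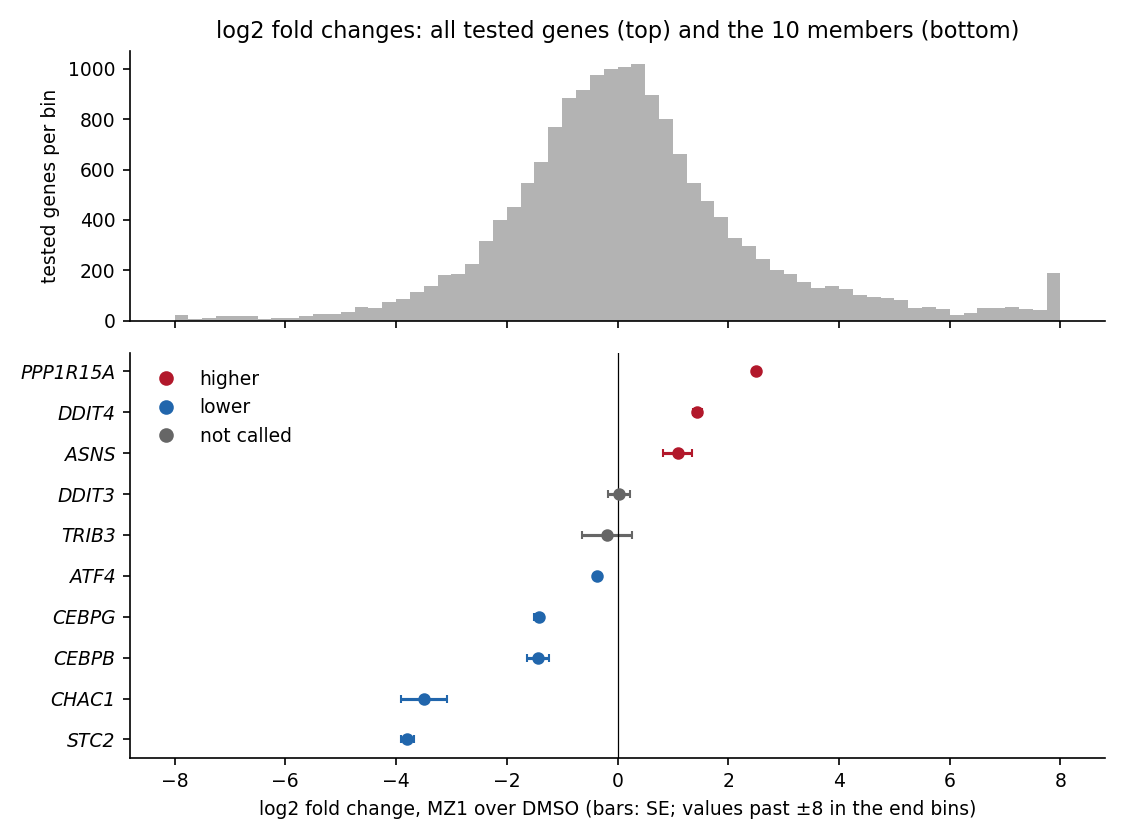
The upper panel counts all 16862 tested genes by log2 fold change (MZ1 over DMSO) in bins, and the lower panel gives the 10 members with their standard errors. The members run from −3.80 for STC2 to 2.51 for PPP1R15A, within the range of all tested genes. Of the tested genes, 2.81% had a lower log2 fold change than STC2 and 87.1% a lower one than PPP1R15A.

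The transcription factors were all lower or not called. ATF4 (chromosome 22, 39519695 to 39522685, GRCh38) had 364.7 and 357.0 CPM with MZ1 and 458.7 and 469.1 CPM with DMSO. Both MZ1 libraries lay below both DMSO libraries, by a small step. The log2 fold change was −0.36 ± 0.04 (SE; edgeR adjusted p = 7.61e-09), or 1.29-fold lower, and 40.3% of tested genes had a lower log2 fold change. With upper-quartile scaling, which moves all log2 fold changes up by a median of 0.27, it shrank to −0.091 (adjusted p = 0.0389). The counts measure ATF4 mRNA and say nothing of its translation, the step at which stress chiefly controls it.

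CEBPG (chromosome 19, 33373330 to 33382686), which encodes the C/EBPγ partner of ATF4, had 26.2 and 29.9 CPM with MZ1 and 74.3 and 76.3 CPM with DMSO. The groups were far apart relative to their spread. CEBPG fell 2.69-fold, a log2 change of −1.43 ± 0.07 (edgeR adjusted p = 2.65e-15). CEBPB (chromosome 20, 50190734 to 50192689), for C/EBPβ, had 3.32 and 4.41 CPM with MZ1 and 9.47 and 11.4 CPM with DMSO, and again the groups did not overlap. It fell by nearly the same step, 2.71-fold (−1.44 ± 0.20, edgeR adjusted p = 2.85e-07). For each CEBPB read there were 7.89 and 6.77 CEBPG reads in MZ1 replicates 1 and 2 and 7.85 and 6.67 in DMSO replicates 1 and 2, so the balance of the transcripts hardly differed between the groups. Of the CEBPB exonic length 11.8% is shared with the antisense gene CEBPB-AS1, which had 2 and 1 reads with MZ1 and 4 and 8 with DMSO.

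DDIT3 (chromosome 12, 57516588 to 57521737) encodes CHOP, a C/EBP relative that acts in prolonged stress. It had 5.66 and 8.10 CPM with MZ1 and 5.99 and 7.43 CPM with DMSO. Both DMSO libraries lay between the MZ1 libraries. The log2 fold change was 0.032 ± 0.20 (edgeR adjusted p = 0.884), and the ratio of summed reads, 192 with MZ1 and 224 with DMSO, was 1.02 after scaling, with an exact 95% counting interval of 0.838 to 1.24. Counting error alone thus allows changes within that range, and without MZ1 replicate 2 the log2 value was −0.25. Of its exonic length 39.6% is shared with other genes, MBD6 and MARS1 on the opposite strand and ENSG00000285133 on the same strand, so its count is uncertain. Of these, MBD6 rose (0.66), MARS1 fell (−1.51) and ENSG00000285133 was not analysed here.

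Of the feedback genes, PPP1R15A and DDIT4 rose and TRIB3 was not called. PPP1R15A (chromosome 19, 48872392 to 48876057) encodes GADD34, which brings protein phosphatase 1 to eIF2 and so restores translation. It had 141.5 and 145.9 CPM with MZ1 and 23.0 and 27.4 CPM with DMSO. Every MZ1 value was several times every DMSO value. It rose 5.70-fold, a log2 change of 2.51 ± 0.07 (edgeR adjusted p = 3.26e-21), and 87.1% of tested genes had a lower log2 fold change. Its constitutive paralog PPP1R15B rose as well, to 400.9 and 397.6 CPM with MZ1 against 189.5 and 193.8 CPM with DMSO (1.06 ± 0.04). There were 0.353 and 0.367 PPP1R15A reads per PPP1R15B read with MZ1 and 0.122 and 0.141 with DMSO.

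TRIB3 (chromosome 20, 362835 to 397559), a pseudokinase known to bind and restrain ATF4 and AKT, had few reads, 19 and 9 with MZ1 and 18 and 20 with DMSO. In CPM these were 1.34 and 0.650 with MZ1 and 1.10 and 1.18 with DMSO. The MZ1 libraries lay on either side of the DMSO libraries. The log2 fold change was −0.19 ± 0.45 (edgeR adjusted p = 0.697), and the ratio of summed reads was 0.878 with an exact 95% counting interval of 0.519 to 1.47. A change within that interval was not detectable at this depth, and without MZ1 replicate 2 the log2 value was 0.24.

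DDIT4 (chromosome 10, 72273920 to 72276036) encodes REDD1, which holds the growth kinase complex mTORC1 in check through the TSC proteins. It had 58.9 and 54.3 CPM with MZ1 and 21.6 and 20.001 CPM with DMSO. The groups were well separated. It rose 2.72-fold (log2 change 1.44 ± 0.08, edgeR adjusted p = 2.77e-14). Of its exonic length 41.2% is shared with the antisense gene DDIT4-AS1, which was not analysed here, and without strand information reads from the pair cannot be told apart.

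Among the metabolic and secreted targets, ASNS (chromosome 7, 97852118 to 97872542) makes asparagine from aspartate, and leukaemic lymphoblasts with little of it are sensitive to asparaginase. It had 5.16 and 4.55 CPM with MZ1 and 2.32 and 2.24 CPM with DMSO. Both MZ1 values lay above both DMSO values, on few reads (136 with MZ1 and 76 with DMSO). The row was called higher, by 2.13-fold (log2 change 1.09 ± 0.26, edgeR adjusted p = 4.61e-04). However, 44.6% of its exonic length is shared on the same strand with ENSG00000284707, annotated as a processed transcript, whose row had 18 and 13 reads with MZ1 and 49 and 35 with DMSO and was called lower. The rows together held 91 and 76 reads with MZ1 and 87 and 73 with DMSO, and fitted as 1 gene they gave a log2 change of 0.31 ± 0.21 that did not pass the test (edgeR adjusted p = 0.168). The ASNS call thus did not hold once the overlapping rows were counted together.

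CHAC1 (chromosome 15, 40952962 to 40956519), an enzyme that degrades glutathione and a sensitive readout of ATF4 and CHOP, had 7 and 3 reads with MZ1 and 73 and 64 with DMSO. In CPM these were 0.495 and 0.217 with MZ1 and 4.46 and 3.78 with DMSO. Every MZ1 library lay far below every DMSO library. It fell 11.3-fold (log2 change −3.50, edgeR adjusted p = 3.04e-08). The ratio of summed reads was 0.0869 with an exact 95% counting interval of 0.0408 to 0.165, and the log2 change was −4.19 without MZ1 replicate 1 and −3.04 without MZ1 replicate 2.

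STC2 (chromosome 5, 173314713 to 173329503) encodes stanniocalcin-2, a secreted glycoprotein induced by stress and hypoxia. It had 4.31 and 3.98 CPM with MZ1 and 57.97 and 57.64 CPM with DMSO. The values within each group nearly coincided and the groups were an order of magnitude apart. It fell 13.9-fold (log2 change −3.80 ± 0.11, edgeR adjusted p = 3.36e-20), the lowest log2 fold change of the 10, and 2.81% of tested genes had a lower one.

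Per kilobase of annotated exon, which allows levels to be compared between genes, ATF4 stood first in both groups, at 145.1 and 142.0 CPM per kb with MZ1 and 182.4 and 186.6 CPM per kb with DMSO. With MZ1 the order below it was PPP1R15A, DDIT4, CEBPG, DDIT3, CEBPB, ASNS, STC2, TRIB3 and CHAC1. With DMSO it was CEBPG, DDIT4, STC2, PPP1R15A, CEBPB, DDIT3, CHAC1, ASNS and TRIB3. In this order CEBPG and DDIT3, and TRIB3 and CHAC1, overlapped across the MZ1 libraries, and CEBPB and DDIT3 overlapped across the DMSO libraries. PPP1R15A stood at 45.8 and 47.2 CPM per kb with MZ1 and 7.45 and 8.85 CPM per kb with DMSO, while STC2 stood at 0.704 and 0.649 CPM per kb with MZ1 and 9.46 and 9.41 CPM per kb with DMSO. ATF4 supplied 59.6% and 58.6% of all reads of the 10 members with MZ1 and 69.6% and 69.3% with DMSO.

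The bases before the start site were searched in the RefSeq promoters of all 10 members (GRCh38.p14, 250 bases each) for the C/EBP-ATF element (TGATGNAA), the cyclic AMP element (TGACGTCA) and the E-box (CACGTG), the site of MYC, on both strands. The first was found in CHAC1 and CEBPG, against 3.14% of 35116 promoters, the second in PPP1R15A (1.65% of all) and the third in ATF4 (6.34% of all). The other 6 held none of these letters in this window. A match is a string of letters and not a measured binding site. The stretches below are shown because each holds the motif found in that member. Capitals mark the motif, and each reads 5′ to 3′ on the strand of the gene, which is the plus strand for all of them.
PPP1R15A, chr19:48872171-48872391, cyclic AMP element: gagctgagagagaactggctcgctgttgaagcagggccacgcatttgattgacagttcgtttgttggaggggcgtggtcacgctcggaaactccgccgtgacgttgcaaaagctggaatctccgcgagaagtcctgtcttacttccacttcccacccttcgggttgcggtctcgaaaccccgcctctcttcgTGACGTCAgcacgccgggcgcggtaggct
CEBPG, chr19:33373896-33374112, C/EBP-ATF element: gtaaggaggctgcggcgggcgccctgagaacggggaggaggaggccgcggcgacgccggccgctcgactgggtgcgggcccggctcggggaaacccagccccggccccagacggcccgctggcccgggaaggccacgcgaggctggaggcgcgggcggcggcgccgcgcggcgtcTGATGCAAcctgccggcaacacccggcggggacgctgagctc
CHAC1, chr15:40953251-40953280, C/EBP-ATF element on the other strand: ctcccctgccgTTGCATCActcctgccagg
ATF4, chr22:39520466-39520493, E-box: gaggagacggtCACGTGgtcgcggcgga
The C/EBP-ATF element begins 42 bases before the RefSeq start in CEBPG, a start that no GENCODE transcript of that gene uses, and 209 bases before it in CHAC1. In CHAC1 and ATF4 the whole searched window lies in annotated exons of transcripts that start further upstream, so these motifs are before the RefSeq start but inside the annotated gene. The CEBPG element, at 33374071 to 33374078, also lies inside its annotated gene, which begins at 33373330, but outside annotated exons. CEBPG and CHAC1, which hold the C/EBP-ATF element, fell 2.69-fold and 11.3-fold. Of the members with no motif in the window, STC2 and CEBPB fell, ASNS was called higher, and DDIT3 and TRIB3 were not called. Whether a motif bears on the direction of change was not tested. DDIT4, which rose, held none of the 3 motifs in its stretch and is given for comparison.
DDIT4, chr10:72273674-72273919: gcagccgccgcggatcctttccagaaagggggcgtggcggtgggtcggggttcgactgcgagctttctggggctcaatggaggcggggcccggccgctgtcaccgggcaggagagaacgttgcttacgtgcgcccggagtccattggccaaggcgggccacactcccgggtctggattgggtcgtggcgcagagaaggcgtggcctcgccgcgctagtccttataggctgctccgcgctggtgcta

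Paralogs of the members were read beside them. Of 11 listed, 10 had a row and 7 were tested, 6 lower and 1 higher. Their median log2 fold change was −1.02, against 0.047 over all tested genes, of which 41.3% were called lower and 42.8% higher. ATF5, which like ATF4 is controlled by upstream reading frames, fell to 109.2 and 104.7 CPM with MZ1 against 293.2 and 283.4 CPM with DMSO (−1.43 ± 0.05, edgeR adjusted p = 2.38e-19). CHAC2 fell 3.15-fold, TRIB1 6.80-fold, TRIB2 2.03-fold and ASNSD1 2.03-fold. TRIB3 had few reads and was not called (−0.19 ± 0.45), and whether it differed from TRIB1 and TRIB2 was not tested. CEBPA, which lies 70765 bases from CEBPG on chromosome 19, fell 2.02-fold (other genes overlap 43.4% of its exons). CEBPD, CEBPE and DDIT4L had too few reads to be tested.

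**Figure D3:**
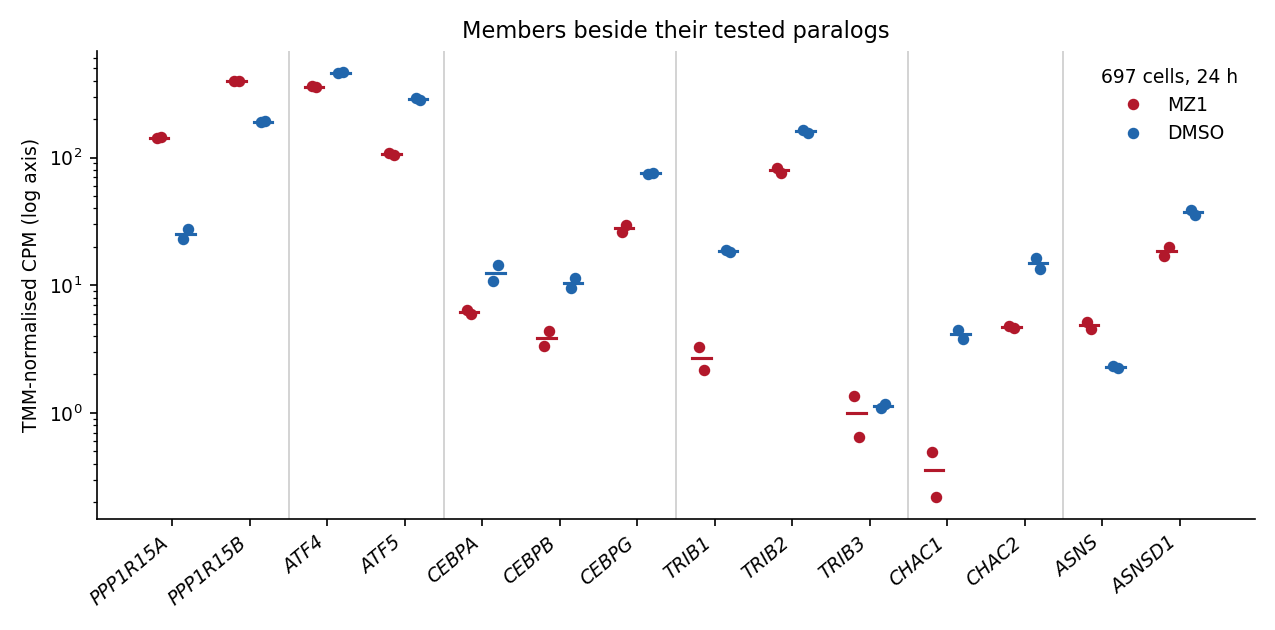
Members and their tested paralogs, grouped by family, are plotted as TMM-normalised CPM on a log axis, 1 point per library with MZ1 (red) left of DMSO (blue) and bars at the means. PPP1R15A and PPP1R15B are both higher with MZ1, and the tested paralogs of the other families shown are lower.

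Upstream of ATF4, genes of eIF2, its kinases, its exchange factor eIF2B and its phosphatase were mostly lower. Of 21 genes 14 were lower and 2 higher (median −0.84), against 41.3% and 42.8% of all tested genes. EIF2AK4, which encodes GCN2, the kinase that senses uncharged tRNA, fell 3.45-fold, to 24.5 and 28.5 CPM with MZ1 against 95.1 and 87.3 CPM with DMSO. Named after their values were seen, to complete the 4 kinases, EIF2AK2 (PKR) fell by 0.80 on the log2 scale, while EIF2AK3 (PERK) had 29.9 and 29.8 CPM with MZ1 and 31.2 and 31.2 CPM with DMSO (edgeR adjusted p = 0.502) and EIF2AK1 (HRI) 173.9 and 172.1 CPM with MZ1 and 175.8 and 178.9 CPM with DMSO (edgeR adjusted p = 0.471). EIF2S2, the β subunit of eIF2, fell 2.88-fold. Of eIF2B, EIF2B3 fell 6.18-fold and EIF2B5 2.80-fold. PPP1R15B, given above, and DNAJC3, an inhibitor of the kinases (0.53 ± 0.06), were the genes called higher, but with upper-quartile scaling 7 were called higher.

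The 3 lists of the amino acid arm of the ATF4 programme were lower almost throughout, against 41.3% of all tested genes called lower. The member ASNS, which is in none of the 3 lists, did not follow. Its log2 change was 1.09 and called higher, or 0.31 and not called when summed with its overlapping row. Of 13 aminoacyl-tRNA synthetase genes known as ATF4 targets, 13 fell (median −1.89). VARS1 fell 16.7-fold, YARS1 6.81-fold, AARS1 5.48-fold and IARS1 4.87-fold. Of 14 listed enzymes of amino acid and one-carbon synthesis, 13 were tested and 13 fell (median −2.17). The gene not tested had too few reads. PYCR1, the last step to proline, had 1.06 and 0.940 CPM with MZ1 and 97.1 and 106.1 CPM with DMSO, a fall of 100.7-fold, and BCAT1 fell 19.2-fold and GPT2 10.4-fold. Of 12 amino acid transporter genes 11 fell and 1 rose (median −2.33). SLC7A1, for arginine and lysine, had 6.65 and 7.66 CPM with MZ1 and 222.9 and 238.7 CPM with DMSO. SLC1A5, for glutamine, fell 6.51-fold, SLC43A1 7.86-fold and SLC7A5 9.25-fold, whereas SLC38A2, known to rise when amino acids are scarce, was 1.33-fold higher. Many of these genes are also known MYC targets, and how far each factor bears on them was not tested.

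Other stress targets of ATF4 were called in both directions. Of 25 listed, 17 were tested, with 8 higher and 9 lower (median −0.52). Over all tested genes 42.8% were called higher and 41.3% lower, so calls in both directions are not particular to this list. The autophagy genes MAP1LC3B and SQSTM1 rose 8.42-fold and 5.46-fold, KLHL24 15.8-fold and the stress factor gene ATF3 5.75-fold, to 51.5 and 57.0 CPM with MZ1 against 8.67 and 10.1 CPM with DMSO. EIF4EBP1, a repressor of cap-dependent translation, fell 16.4-fold, VEGFA 8.11-fold and the tRNA export gene XPOT 6.16-fold. VEGFA and STC2 both lie among targets shared with the hypoxia response. NUPR1, TNFRSF10B, GDF15, LAMP3, NIBAN1 and ADM2 had too few reads to be tested.

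Among partner and related bZIP factors 9 of 15 tested were higher and 5 lower (median 0.46), against 42.8% and 41.3% of all tested genes. FOS and JUN, of the AP-1 family, rose 29.4-fold and 22.4-fold, and MAFG, a partner of NRF2, rose 2.49-fold. BATF3 fell 21.3-fold and ATF6B 3.83-fold. Some genes, such as ATF3, ATF5, CEBPA, PPP1R15B and EIF4EBP1, stand in more than 1 of the lists given here, so the lists are not separate evidence.

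**Figure D4:**
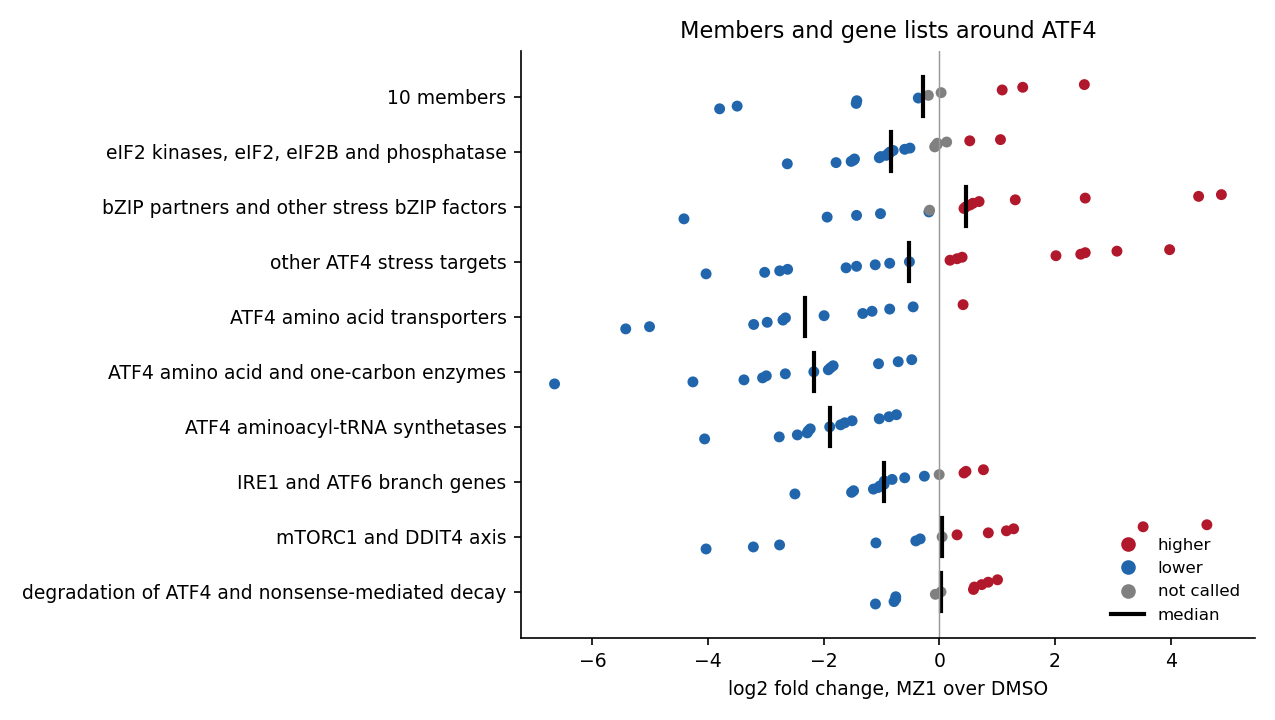
Each point is 1 tested gene at its log2 fold change (MZ1 over DMSO), red if called higher, blue if called lower and grey if not called, with a black bar at each list's median. The amino acid transporter, enzyme and synthetase lists lie left of 0 with 1 exception, while the 10 members and the other stress targets lie on both sides.

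The other branches of the unfolded protein response were mostly lower. Of 16 genes tied to IRE1 and ATF6, 12 were lower and 3 higher (median −0.95), against 41.3% and 42.8% of all tested genes. The chaperone genes CALR and HSPA5 fell 2.79-fold and 2.08-fold, PDIA6 2.86-fold and SDF2L1 5.64-fold. The sensors and factors ERN1 (IRE1), ATF6 and XBP1 rose 1.70-fold, 1.38-fold and 1.35-fold. Around DDIT4, the mTORC1 list had 6 of 13 tested genes higher and 6 lower (median 0.049). That split and median were near those of all tested genes (42.8% higher, 41.3% lower, median 0.047). TSC1 and TSC2, through which DDIT4 acts, rose 2.24-fold and 1.80-fold, SESN3 and TXNIP rose 24.7-fold and 11.5-fold, and MTOR, RPTOR and MLST8 of the complex itself fell 2.14-fold, 6.78-fold and 9.29-fold. Of 11 genes of ATF4 degradation and nonsense-mediated decay, which is known to act on ATF4 mRNA, 5 were higher and 4 lower (median 0.031). This split, too, was near that of all tested genes. UPF3B rose 2.01-fold and UPF1 1.80-fold, while UPF2 fell 2.15-fold and SMG5 1.72-fold.

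**Figure D5:**
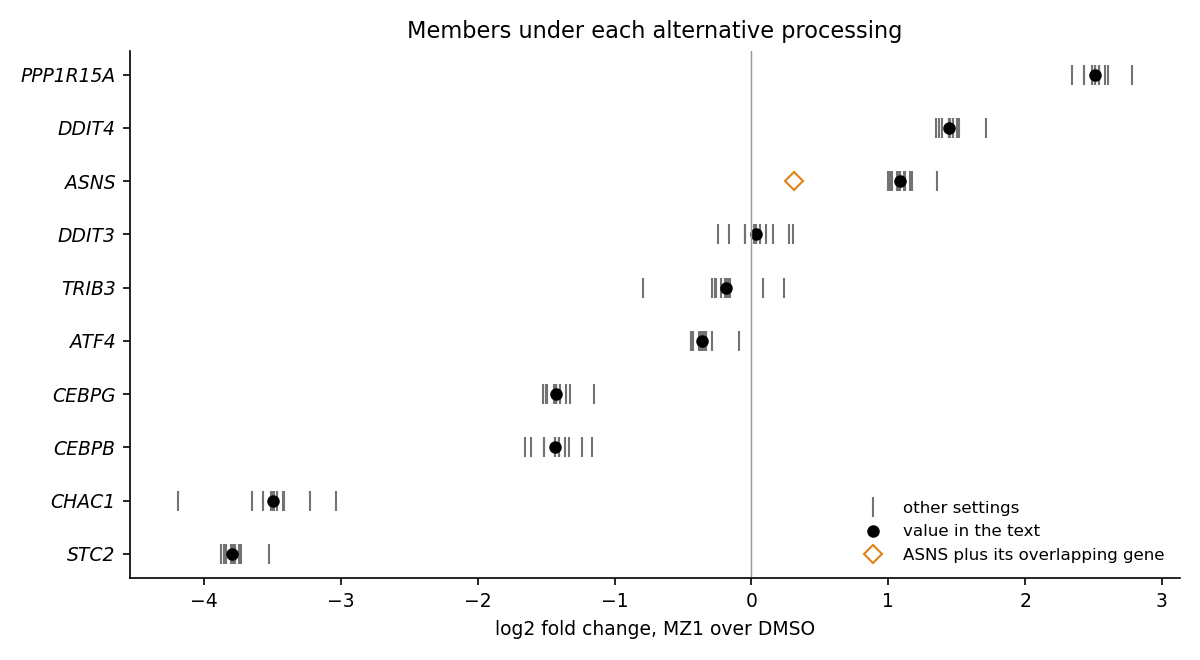
Log2 fold changes (MZ1 over DMSO) of the 10 members are shown as reported (black points), under other scalings, filters, tests and with libraries left out (grey ticks), and for ASNS also with its overlapping gene added (orange diamond). The members that were called stay on their side of 0, at 0.31 for ASNS with the added gene, and DDIT3 and TRIB3 fall on both sides.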

How the data were processed

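RNA from 4 libraries of 697 cells (2 MZ1, 2 DMSO) was measured. The authors deposited raw read counts per Ensembl gene, which are whole numbers in columns named for each library, per the file headers. Per the labels' protocols RNA came from TRIzol and libraries from the TruSeq RNA kit. The submitters' processing notes name HISAT2 2.2.0 and hg38. Which program and annotation counted the reads, and whether strand was used, is not stated, so reads of overlapping genes cannot be told apart. Symbols came from the gene name table (28597 of 28814 IDs), positions and exon overlaps from GENCODE 29 (GRCh38), and promoters from RefSeq.

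Testing used edgeR 4.0.16 in R 4.3.3, with genes kept by filterByExpr (16862), TMM scaling, and a quasi-likelihood fit with treatment as the only term, tested two-sided over all genes with Benjamini-Hochberg adjustment. The script was tested on simulated data in which few genes changed, balanced in direction. That setting differs from these data, so it cannot check the scaling where most genes change. Permuting 2 against 2 libraries gives a smallest two-sided p of 0.333, and calls rest on the spread edgeR pools over genes. Standard errors derive from the F statistic and understate the error at few reads. Intervals reflect counting error alone, because they rest on reads summed over each group and leave out the spread between libraries. They also make no allowance for PCR copies, which cannot be removed without molecular identifiers. Replicates differed by more than sampling noise (chi-square per degree of freedom 1.96 for MZ1 and 2.08 for DMSO) and each counts as 1 library.

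The members and gene lists were chosen with earlier results of these data known. All members and paralogs, and up to 4 called genes per direction with the smallest adjusted p of each other list, were eligible to be named. Alternatives covered the scaling, count filter, test (DESeq2 1.42.0, limma-voom in limma 3.58.1, the edgeR likelihood ratio test), replicate number as a block, and each library left out.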

Additional observations from a re-analysis of the deposited data

How the results depend on the processing

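Over the other scalings, filters and tests and with each library left out, 8 members were called in every fit, 3 higher and 5 lower, and no called member changed sign. Values of members that were not called changed sign. DDIT3 was at −0.045 on the log2 scale with library totals alone and also −0.045 without a count filter, and ran from −0.25 to 0.28 when each library was left out. TRIB3 was at 0.082 with upper-quartile scaling and ran from −0.80 to 0.24 with a library left out, and had no value under the stricter count filter. ASNS was at 0.31 and no longer called when summed with ENSG00000284707, an alternative chosen after seeing the data. Leaving out 1 library leaves 1 group with a single library, which is assumed to vary like the other group. The replicate numbers are shared only as numbers (correlation of replicate differences between the groups 0.014), and with the replicate block 13963 genes and 8 members were called, against 14191 and 8 without it. Few reads limit CHAC1, TRIB3 and ASNS most.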
